A study of Mus musculus with 4 samples.

Results

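The genes described here serve the control of cell volume: 5 organic osmolyte carriers (Slc6a9, Slc6a20b, Slc6a6, Slc5a3 and Slc38a2), the ion carrier Slc12a2, 3 aquaporins (Aqp3, Aqp8 and Aqp9) and the transcription factor Nfat5. They are 10 of the 30049 genes in the deposited table. They were chosen by name, as rows whose Ensembl identifier carries one of these symbols, and all 10 were found. Zygotes of the BDF1 cross (BDF1*BDF1 F2 embryos of wild type genotype), collected about 18 h after the females had received the ovulation-inducing hormone hCG, spent 24 h in KSOM, a culture medium made for such embryos. The control embryos had no addition and the treated embryos had 2% dimethyl sulfoxide (DMSO), a solvent that crosses cell membranes readily. At the 2-cell stage RNA was sequenced from pooled embryos, with 50 collected for each group, and the sources used here do not say how many entered each library. There are 2 control libraries and 2 DMSO libraries. Nothing in the labels says that the replicates came from separate matings, so the p-values measure the spread between these libraries, which may be technical.

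Levels are given in TPM, which correct the reads of a gene for its length and for the library total. TPM values can be compared between genes, but they keep no record of depth, so that no counting error or detection limit can be given. They are shares of the RNA in a pool of embryos, and fewer expressing cells and less RNA per cell cannot be told apart. All listed genes together reached 768174 and 780527 TPM in the control libraries, against 772487 and 799166 TPM after DMSO. Pairs of values are given here with replicate 1 first, and where one pair stands against another the control libraries come first. Mitochondrially encoded genes held 10.8% and 12.4% of these sums in control embryos, against 15.3% and 21.7% after DMSO.

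A cell in a medium whose osmolality is raised by solutes that cannot enter it loses water and shrinks, whereas a solute that enters, such as DMSO, draws water out only until it has equilibrated. A shrunken cell first regains volume by importing salts, in many cells through the sodium, potassium and chloride cotransporter NKCC1, which is the product of Slc12a2, and then replaces the salts with uncharged organic osmolytes such as glycine, betaine, taurine and inositol. Early mouse embryos are known to rely on glycine, carried by GLYT1 (Slc6a9), and on betaine and proline, carried by SIT1 (a product of the Slc6a20 genes). NFAT5 is the factor that switches on osmolyte carriers and osmolyte synthesis in somatic cells under raised tonicity. Aquaporins pass water and, in the case of AQP3 and AQP9, also glycerol and other small solutes.

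The SIT1 carrier has 2 neighbouring gene copies in the mouse, Slc6a20b and Slc6a20a, and their values depend on how well the reads tell them apart. Slc6a20b lies on chromosome 9 of GRCm38, on the minus strand from 123590800 to 123632565 in GENCODE M21. The coding sequences of both copies, taken from the GENCODE transcripts Slc6a20b-201 and Slc6a20a-201, aligned over 1776 bases with 91.5% identity. The stretch of 150 coding bases with the most differences is shown to let the copies be compared, with the 44 differing bases in capitals. It covers bases 1753 to 1902 of the coding sequence of Slc6a20b, spread over exons between chr9:123594999-123596048, and bases 1624 to 1773 of that of Slc6a20a, between chr9:123637002-123637798, counted from 1 at the start codon.
Slc6a20b: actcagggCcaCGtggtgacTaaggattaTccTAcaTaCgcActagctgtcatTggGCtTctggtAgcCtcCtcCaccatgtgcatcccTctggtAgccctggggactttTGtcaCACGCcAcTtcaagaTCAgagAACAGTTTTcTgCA
Slc6a20a: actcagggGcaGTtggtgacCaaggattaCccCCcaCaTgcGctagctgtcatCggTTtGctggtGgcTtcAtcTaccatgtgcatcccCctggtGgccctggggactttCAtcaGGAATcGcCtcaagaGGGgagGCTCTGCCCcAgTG

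Of the 31-base words in the transcripts of Slc6a20b, counted on either strand, 31.5% also occur in transcripts of other genes, most of them in Sacm1l, whose end overlaps that of Slc6a20b on the opposite strand and which held 20.5% of the words. Sacm1l was at 7.84 and 10.8 TPM in control embryos and at 3.08 and 4.11 TPM after DMSO. Among the other 9 genes only Slc6a9 shared more than 10% of its words, namely 28.4%, mainly with Ccdc24 on the opposite strand. The library protocol is not stated to keep the strand, so the values of Slc6a9 and Slc6a20b are uncertain. The shares of words do not say by how much. Of the 31-base words of Slc6a20a, 32.0% occur in other genes, and 19.5% occur in Slc6a20b. The values of Slc6a20a are thus uncertain as well.

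Slc12a2 and Aqp9 were the abundant genes of the group, and Slc12a2 was the gene called lower after DMSO. In control embryos Slc12a2 was the highest of the 10 genes at 116 ± 27.9 TPM (SD, n = 2), followed by Aqp9 at 60.9 ± 12.6, Slc6a6 at 9.93 ± 3.47, Slc5a3 at 5.66 ± 1.22 and Nfat5 at 4.22 ± 2.20 TPM. Slc6a20b followed at 1.08 ± 0.039 TPM, and Slc6a9, Slc38a2 and Aqp3 were below 1 TPM on average. Aqp8 was listed at 0 in all 4 libraries. In this order the ranges of Slc5a3 and Nfat5 overlapped, as did those of Slc6a9 and Slc38a2, and the other neighbours did not. In DMSO-treated embryos the order began with Aqp9 at 79.6 ± 19.2 TPM, followed by Slc12a2 at 36.0 ± 16.4 and Nfat5 at 8.65 ± 3.30 TPM (SD, n = 2). There Slc6a6 and Slc5a3 overlapped, and so did the lowest 3 genes above 0.

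**Figure D1:**
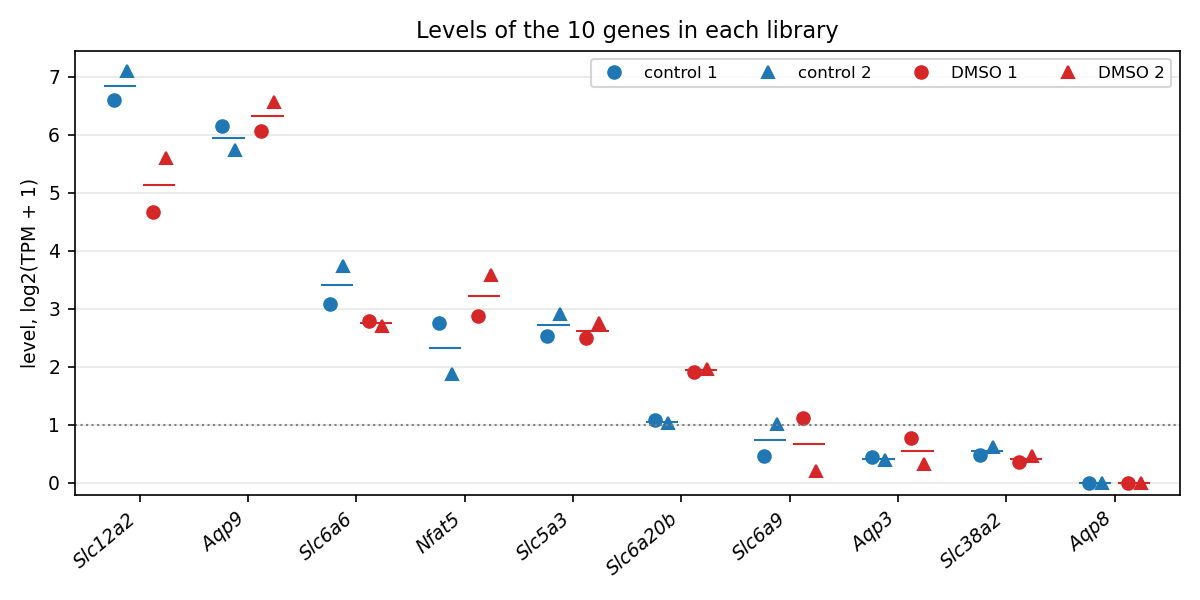
Level of each of the 10 genes as log2(TPM + 1) in the 2 control libraries (blue) and the 2 DMSO libraries (red), ordered by the mean over the 4 libraries, with circles for replicate 1, triangles for replicate 2 and bars for group means of the log2 values. The dotted line marks 1 TPM. The groups do not overlap for Slc12a2, Slc6a6, Nfat5, Slc6a20b and Slc38a2, as for 69.8% of all genes tested. They overlap for Aqp9, Slc5a3, Slc6a9 and Aqp3, and Aqp8 is at 0 throughout.

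The difference between DMSO-treated and control embryos was tested with limma, a linear model with variances shared between genes, on log2(TPM + 1) over the 12038 genes whose mean reached 1 TPM. The log2 fold changes are on that scale, which understates changes of low genes. Of the 10 genes 6 entered the test. At a Benjamini-Hochberg adjusted p-value under 0.05, 1 of them (Slc12a2) was lower and 0 were higher, with 1 higher at an unadjusted p-value under 0.05 (Slc6a20b). Over all genes tested 14.1% were called lower, 6.42% higher and 20.5% in either direction, and 2929 of the 12038 genes were lower and 1906 higher at an unadjusted p-value under 0.05. The share of the 6 genes that was called is thus near that of all genes. The split between higher and lower calls depended on the scaling, with 773 higher and 1697 lower on the deposited values and 1076 and 1121 after quantile normalization. The median change over the whole test was -0.09 on the log2 scale and became 0.01 when TPM values were rescaled without mitochondrial genes. With 2 libraries against 2, the smallest p that an exact two-sided permutation test can give for 1 gene is 0.333.

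Slc12a2 (ENSMUSG00000024597, on chromosome 18), which encodes the cotransporter NKCC1, was at 95.8 and 135 TPM in control embryos and at 24.4 and 47.6 TPM after DMSO. Both DMSO libraries were below both control libraries, and the mean was 3.21 times higher in control embryos. The log2 fold change was -1.71 (standard error 0.38, 95% confidence interval -2.62 to -0.79, limma adjusted p = 0.0314). Only 0.193% of its 31-base words occur in other genes. Within a library, which removes the scaling between libraries, the ratio of Slc12a2 to Aqp9 was 1.37 and 2.60 without DMSO, against 0.369 and 0.510 with it. The ratio of Slc12a2 to the kinase gene Wnk1 was 0.419 and 0.664, against 0.110 and 0.222. The change was -1.44 after quantile normalization (limma adjusted p = 0.0576) and -1.71 without a filter on low values (limma adjusted p = 0.121), where 0 genes of the whole table were called. It was -1.96 without control replicate 1 (limma adjusted p = 0.0682), -1.46 without control replicate 2 (limma adjusted p = 0.187) and -1.24 without DMSO replicate 1 (limma adjusted p = 0.103), in fits that called 3, 3 and 15 genes in all. Without DMSO replicate 2 it was -2.18 (limma adjusted p = 0.026), in a fit that called 2091 genes. Rescaled without mitochondrial genes, the log2 fold change was -1.62 (limma adjusted p = 0.0455).

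Among 5574 named genes outside the lists with a mean of at least 10 TPM, the genes closest to Slc12a2 in their log2(TPM + 1) pattern over the 4 libraries, each centred on its own mean, were Lemd3 (Euclidean distance 0.077), Rpl35a (0.092) and Phax (0.095). Lemd3, which encodes a protein of the inner nuclear membrane, was at 29.1 and 44.3 TPM in control embryos and at 6.93 and 14.7 TPM after DMSO. Like Slc12a2, these 3 genes were higher in replicate 2 than in replicate 1 of both groups. They were picked for closeness to its pattern, so this likeness follows from the choice.

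Of the organic osmolyte carriers 3 were tested, and 0 passed the adjusted test, which 20.5% of all genes tested passed. Slc6a20b was at 1.11 and 1.05 TPM in control embryos and at 2.76 and 2.91 TPM after DMSO. Its libraries agreed closely within groups, and the means differed 2.62-fold, but the log2 fold change of 0.88 (standard error 0.33, 95% confidence interval 0.10 to 1.67) was not called (limma adjusted p = 0.0959). The other copy, Slc6a20a, was at 0.998 and 0.436 TPM in control embryos and at 2.31 and 1.46 TPM after DMSO, and was not called either (limma adjusted p = 0.18). With the TPM values of both copies summed, a setting chosen after the data were seen, the log2 fold change was 1.04 (limma adjusted p = 0.0696).

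Slc6a6, which encodes the taurine carrier (chromosome 6 of GRCm38, plus strand, 91684053 to 91759066), was at 7.48 and 12.4 TPM in control embryos and at 5.94 and 5.54 TPM after DMSO. The groups did not overlap, but the spread between the control libraries was wide. The log2 fold change of -0.66 (95% confidence interval -1.498 to 0.175) was not called (limma adjusted p = 0.199), and it ranged from -0.99 to -0.33 when 1 library was left out. Slc5a3, which encodes the sodium-coupled inositol carrier SMIT1, was at 4.80 and 6.52 TPM in control embryos and at 4.63 and 5.74 TPM after DMSO. Its groups overlapped almost fully, and its log2 fold change of -0.10 had a 95% confidence interval from -0.89 to 0.69 (limma adjusted p = 0.835). Slc5a3 lies inside Mrps6, a gene for a mitochondrial ribosomal protein on the same strand (chromosome 16, Slc5a3 from 92058322 to 92087473 and Mrps6 from 92058270 to 92112227). Both begin at nearly the same base, yet Mrps6 was at 105 and 131 TPM in control embryos and at 49.5 and 77.6 TPM after DMSO, and 1.18% of the 31-base words of Slc5a3 occur in it.

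Slc6a9 and Slc38a2 were too low to enter the test. Slc6a9, the gene for the glycine carrier GLYT1 (chromosome 4, plus strand, 117834506 to 117875198), was at 0.380 and 1.03 TPM in control embryos and at 1.18 and 0.156 TPM after DMSO. The groups overlapped fully, with the highest and the lowest value both in the DMSO group. Slc38a2, which encodes the amino acid carrier SNAT2 (chromosome 15, minus strand, 96687392 to 96699730), was at 0.401 and 0.528 TPM in control embryos and at 0.287 and 0.373 TPM after DMSO. Both of its DMSO values were below its control values, at levels for which TPM gives no counting error.

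Of the aquaporins, Aqp9 alone was abundant. Aqp9 (chromosome 9, minus strand, 71110659 to 71168682), a channel for water and small solutes, was at 69.9 and 52.0 TPM in control embryos and at 66.0 and 93.2 TPM after DMSO. Control replicate 1 lay above DMSO replicate 1, and the log2 fold change of 0.37 (95% confidence interval -0.35 to 1.10) was not called (limma adjusted p = 0.379). This change ranged from 0.13 to 0.62 when 1 library was left out and was 0.67 after quantile normalization. Aqp3, a channel for water and glycerol (chromosome 4, minus strand, 41092722 to 41098183), was at 0.363 and 0.313 TPM in control embryos and at 0.715 and 0.258 TPM after DMSO, with overlap. Aqp8, a water channel (chromosome 7, plus strand, 123462291 to 123468004), was listed at 0 in every library.

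Nfat5 (chromosome 8, plus strand, 107293470 to 107379517) was at 5.78 and 2.66 TPM in control embryos and at 6.31 and 10.98 TPM after DMSO. Both DMSO values were above both control values, but DMSO replicate 1 was nearly as low as control replicate 1. The log2 fold change was 0.91 (standard error 0.44, 95% confidence interval -0.14 to 1.96, limma adjusted p = 0.167), and it ranged from 0.47 to 1.35 when 1 library was left out. Of the 6 genes tested 2 had lower and 2 had higher values in both DMSO libraries than in both control libraries. Over all genes tested 69.8% were separated in this way, 38.7% lower and 31.1% higher, so the separation of the groups is common in these data.

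**Figure D2:**
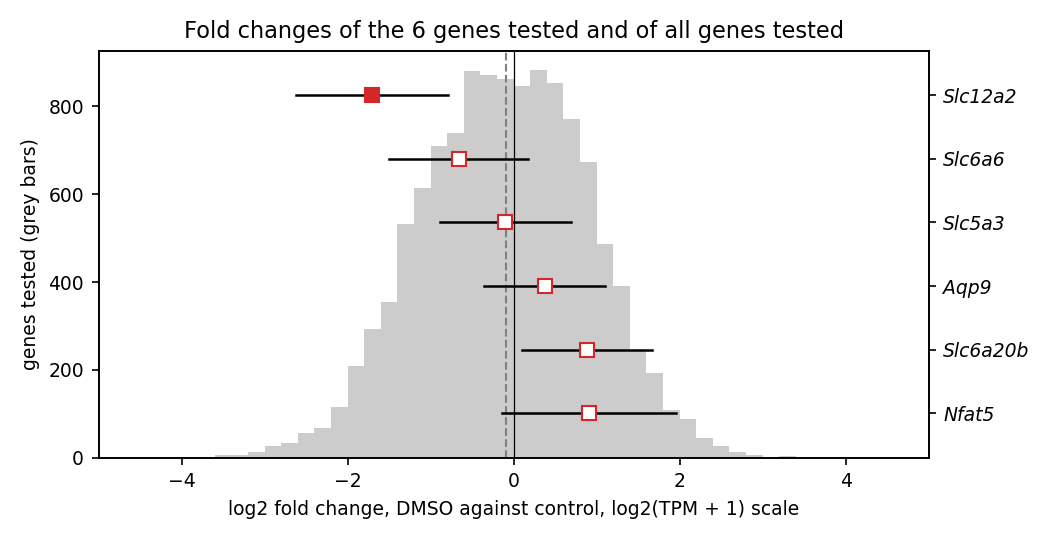
Log2 fold change of DMSO-treated against control embryos on the log2(TPM + 1) scale for the 6 genes tested (squares, filled where the limma adjusted p-value was under 0.05, with 95% confidence intervals), over the histogram of all 12038 genes tested (grey bars, left axis). The dashed line is the median of all genes, -0.09. Slc12a2 at -1.71 is the gene whose mark is filled, and the intervals of Slc6a6, Slc5a3, Aqp9 and Nfat5 include 0.

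NFAT5 binds DNA through a core of TGGAAA, so the 250 bases before the start of each gene were searched for these letters on both strands in the promoter sequences of RefSeq (GRCm38.p6). Promoter windows were found for 8 of the 10 genes, 11 windows in all, and 2 held the core, 1 of Aqp9 and 1 of Slc6a20b. Slc6a6 and Slc12a2 had no window and were not searched. Among all 32851 windows 18.6% held it. The window of Slc6a20b is shown as an example of an osmolyte carrier, from chr9:123632566-123632788 on the minus strand, 5′ to 3′, cut at the start of the gene in GENCODE M21, with the core in capitals as it reads on this strand (TTTCCA), 160 bases before the RefSeq start.
Slc6a20b promoter: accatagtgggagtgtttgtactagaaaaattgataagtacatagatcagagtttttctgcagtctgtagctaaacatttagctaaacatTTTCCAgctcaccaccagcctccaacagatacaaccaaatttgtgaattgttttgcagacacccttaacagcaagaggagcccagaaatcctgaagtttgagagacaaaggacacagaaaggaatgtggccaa

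A match in these letters is a description of the sequence and not a binding site, and the windows without it say nothing about NFAT5 binding elsewhere.

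The other genes of cell volume control were listed by family and role. Of these 98 genes 85 were above 0 in any library and 48 entered the test. limma called 6 lower and 4 higher, 20.8% in all against 20.5% of all genes tested, and their median log2 fold change was -0.04 against -0.09. Under median-ratio scaling and under quantile normalization the split was 5 lower and 5 higher. With a mean of at least 5 TPM, 8 lower and 4 higher were called among 26 tested, against 2450 of 7470 genes in all. Rescaled without mitochondrial genes, 4 lower and 4 higher were called among 52 tested, against 1978 of 13221 genes in all. At a mean of at least 1 TPM on the deposited values, the list held about as many calls as the background.

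**Figure D3:**
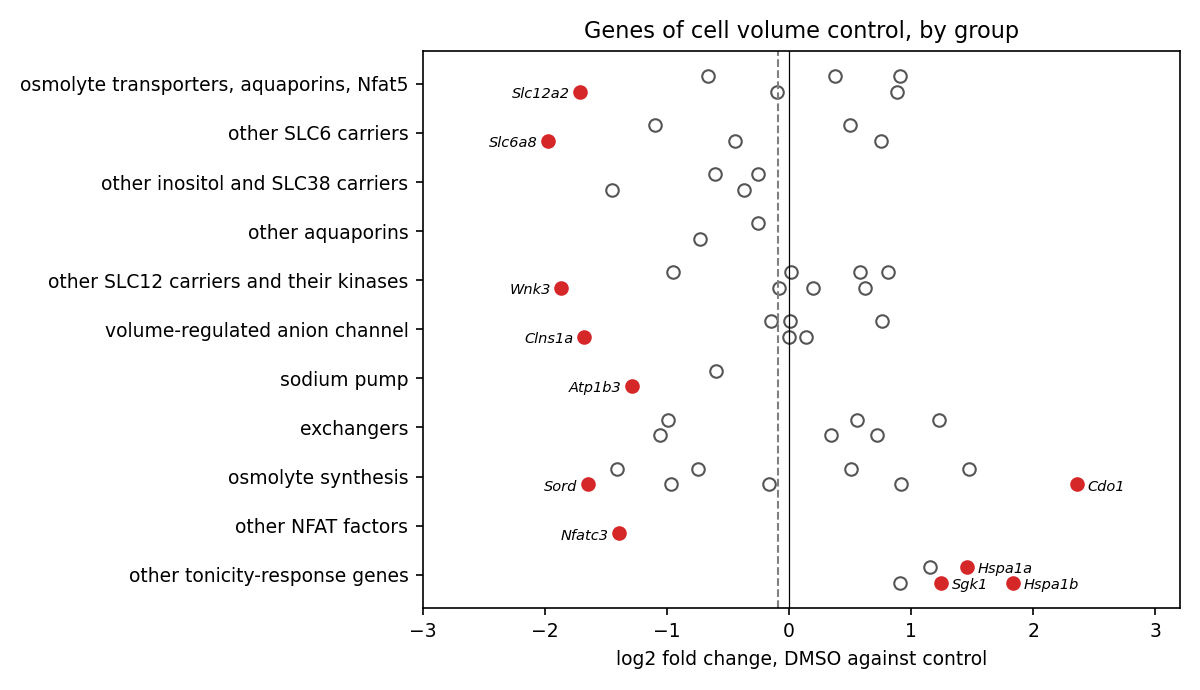
Log2 fold change of DMSO-treated against control embryos for the genes of cell volume control that were tested, 1 circle a gene, by group. Filled and named circles had a limma adjusted p-value under 0.05, and the dashed line is the median of all genes tested. Below 0, Slc12a2 in the top row and 1 gene in each of 6 other groups are filled, and of the 4 filled circles above 0 all but Cdo1 are tonicity-response genes.

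Of 17 other carriers of the SLC6 family 5 were tested and 1 was called, a share near the 20.5% of all genes tested. This was the creatine carrier gene Slc6a8, which fell from 6.49 and 12.3 TPM to 1.19 and 1.94 TPM (-1.98 ± 0.41 on the log2 scale, standard error, limma adjusted p = 0.0273). Slc6a15, a carrier of neutral amino acids with the highest mean of this group over the 4 libraries, was at 8.64 and 8.97 TPM against 6.29 and 6.12 TPM and was not called (limma adjusted p = 0.294). Slc6a12, which encodes the betaine carrier of the kidney, and Slc6a5, which encodes the second glycine carrier GLYT2, were listed at 0 in all 4 libraries.

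Of the inositol and SLC38 carriers 4 of 12 were tested, and 0 were called by limma, against 20.5% of all genes tested. With an unadjusted p-value under 0.05, 1 was lower, as were 2929 of all 12038 genes. This was Slc38a7, at 1.92 and 3.16 TPM in control embryos and at 0.620 and 0.00035 TPM after DMSO (limma adjusted p = 0.0502). It was called in 2 of 6 other settings of the test. Slc38a6 was the most abundant of these carriers at 132 and 104 TPM in control embryos and 105 and 92.5 TPM after DMSO. Its change of -0.25 on the log2 scale became 0.03 under quantile normalization, and 40.7% of its 31-base words occur in other genes, chiefly in Noct. Slc5a11, which encodes the inositol carrier SMIT2, was at 2.93 and 3.68 TPM in control embryos and at 0.276 and 5.25 TPM after DMSO, which lay on either side of the controls.

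Of the 9 other aquaporins 2 were tested and 0 were called, against 20.5% of all genes tested. Neither had an unadjusted p-value under 0.05, which 4835 of all 12038 genes had. Aqp11, an aquaporin of intracellular membranes, was at 9.78 and 12.3 TPM in control embryos and at 5.96 and 6.48 TPM after DMSO (limma adjusted p = 0.126). Aqp7, a channel for water and glycerol, was at 3.12 and 2.87 TPM against 2.64 and 2.08 TPM (limma adjusted p = 0.58).

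WNK kinases switch on SPAK (Stk39) and OSR1 (Oxsr1), which phosphorylate and activate NKCC1. Wnk3 fell from 12.2 and 7.46 TPM to 1.63 and 2.17 TPM (-1.87 ± 0.36 on the log2 scale, standard error, limma adjusted p = 0.0248). Wnk1, the most abundant gene of the wider list, was at 228 and 204 TPM in control embryos and at 222 and 214 TPM after DMSO, with a log2 fold change of 0.01 and a 95% confidence interval from -0.56 to 0.59. Oxsr1 was at 21.7 and 22.4 TPM against 9.95 and 12.02 TPM and did not pass the test (limma adjusted p = 0.0579). It was called in 2 of 7 other settings of the test. Stk39 was low, at 0.839 and 0.606 TPM against 1.73 and 1.55 TPM, and was not called (limma adjusted p = 0.21). Of the 14 other SLC12 carriers and kinases 8 were tested, and Wnk3 was the gene called, a share of 12.5% against 20.5% of all genes tested.

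The volume-regulated anion channel, built of LRRC8 proteins, releases chloride and organic osmolytes from swollen cells. Its obligate subunit Lrrc8a was at 5.85 and 6.40 TPM in control embryos and at 5.98 and 6.34 TPM after DMSO, and 67.6% of its 31-base words occur in other genes. Lrrc8b was at 14.8 and 11.5 TPM against 26.7 and 19.5 TPM and was not called (limma adjusted p = 0.121). Clns1a, once proposed as a chloride channel of swelling and better known for its role in the assembly of spliceosomal particles, fell from 179 and 176 TPM to 40.1 and 74.3 TPM (-1.68 ± 0.34 on the log2 scale, standard error, limma adjusted p = 0.0265).

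The sodium pump sets the gradient that most of these carriers use. Its beta subunit gene Atp1b3 fell from 144 and 210 TPM to 57.7 and 86.6 TPM (-1.29 ± 0.32 on the log2 scale, standard error, limma adjusted p = 0.0391), and 16.2% of its 31-base words occur in other genes, chiefly in Gm1848. It was called in 3 of 7 other settings of the test. Of 12 sodium-proton and anion exchangers 6 were tested and 0 were called by limma, with 2 lower and 1 higher at an unadjusted p-value under 0.05, where 4835 of all 12038 genes passed. Slc9a7, an exchanger of the Golgi, was at 4.29 and 2.83 TPM against 7.30 and 5.64 TPM (limma adjusted p = 0.166).

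Of 10 genes for the synthesis or removal of organic osmolytes 9 were tested, with 1 called lower and 1 higher, a share of 22.2% that is near the 20.5% of all genes tested. Cdo1, cysteine dioxygenase, the first enzyme on the way from cysteine to taurine, rose from 52.7 and 15.5 TPM to 205 and 113 TPM (2.36 ± 0.58 on the log2 scale, standard error, limma adjusted p = 0.0376). The control libraries lay far apart, and the change was 3.21 without control replicate 1 and 1.51 without control replicate 2. Csad, the next enzyme of that path, was at 6.40 and 3.99 TPM against 9.32 and 6.22 TPM and was not called (limma adjusted p = 0.331). Sord, sorbitol dehydrogenase, which removes sorbitol, fell from 56.9 and 57.3 TPM to 15.9 and 19.4 TPM (-1.65 ± 0.27 on the log2 scale, standard error, limma adjusted p = 0.0208), and 35.9% of its 31-base words also occur in Gm6652. Akr1b3, aldose reductase, which makes sorbitol and is a known target of NFAT5, was at 38.4 and 15.7 TPM in control embryos and at 76.3 and 64.6 TPM after DMSO. Its log2 fold change of 1.47 (standard error 0.43) did not pass the test (limma adjusted p = 0.0541), although it was called in 4 of 7 other settings of the test. The change was 2.09 without control replicate 1 and 0.86 without control replicate 2. Impa2 (-0.97 on the log2 scale, limma adjusted p = 0.0638) and Impa1 (-1.41, limma adjusted p = 0.0763) were lower in both DMSO libraries. They did not pass the test either, and were called in 2 of 7 and in 1 of 6 other settings.

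The 5 further genes of the response to tonicity were higher in both DMSO libraries than in both control libraries, and 3 of the 5 were called. Over all genes tested 31.1% were higher without overlap and 6.42% were called higher, and the list was drawn up with earlier results of these data known. Hspa1b and Hspa1a, which encode the inducible heat shock protein 70, are also raised by heat and by unfolded proteins. Hspa1b rose from 7.01 and 6.96 TPM to 31.7 and 23.7 TPM (1.83 ± 0.30 on the log2 scale, standard error, limma adjusted p = 0.0209), and Hspa1a from 8.64 and 5.04 TPM to 23.9 and 16.6 TPM (limma adjusted p = 0.0393). Reads could be split between these near-identical genes, since 67.7% of the 31-base words of Hspa1b occur in Hspa1a and 63.8% of those of Hspa1a in Hspa1b. Sgk1, a kinase that stimulates many carriers, rose from 2.25 and 2.01 TPM to 6.59 and 6.28 TPM (1.25 ± 0.32 on the log2 scale, standard error, limma adjusted p = 0.0401). Hspa4l, a cochaperone first described under osmotic stress, was at 2.63 and 2.40 TPM against 8.38 and 5.49 TPM (limma adjusted p = 0.0582). Slc14a2, a urea carrier of the kidney, was at 4.96 and 4.52 TPM against 8.84 and 10.7 TPM (limma adjusted p = 0.0789).

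**Figure D4:**
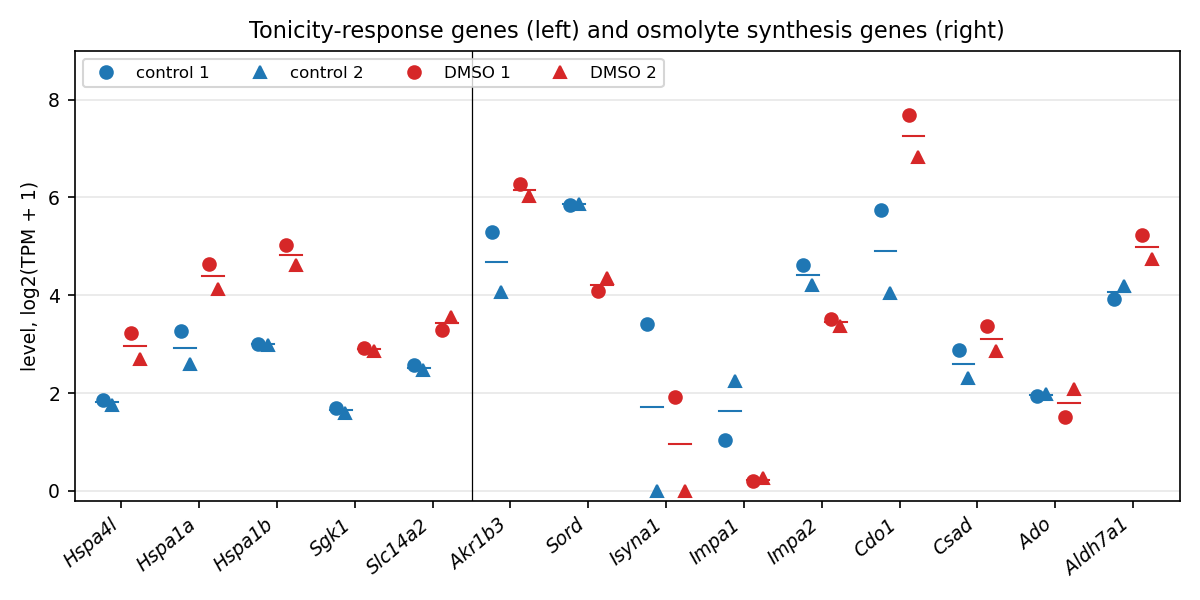
Level as log2(TPM + 1) in the 2 control libraries (blue) and the 2 DMSO libraries (red) of the 5 tonicity-response genes (left of the line) and of the 9 osmolyte synthesis genes tested (right), with circles for replicate 1, triangles for replicate 2 and bars for group means. All 5 genes on the left are higher in both DMSO libraries, and on the right Cdo1 and Akr1b3 are among the genes higher and Sord and Impa2 among those lower in both DMSO libraries.

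The relatives of Nfat5 are activated by calcium and not by tonicity. Of the 4 genes Nfatc3 was tested and fell from 21.3 and 20.8 TPM to 5.74 and 9.43 TPM (-1.40 ± 0.33 on the log2 scale, standard error, limma adjusted p = 0.0349). Nfatc1 was below 1 TPM in all 4 libraries. Each of the 10 calls in the wider list was lost without a filter on low values, where 0 of 22257 genes were called at an adjusted p-value under 0.05 and 5368 had an unadjusted p-value under 0.05. Without control replicate 1, control replicate 2 or DMSO replicate 1, 0 of the wider list were called, where limma called 3, 3 and 15 genes over the whole table. Without DMSO replicate 2, 7 lower and 2 higher were called.

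Markers were examined for the labelled stage and for other cells that embryo collection can carry over. Of 8 markers of the oocyte and early embryo 7 were tested. Dppa3, at 11639 and 15346 TPM in control embryos and at 10828 and 15216 TPM after DMSO, made up most of the summed level of the list, which was 12710 and 16032 TPM against 13624 and 17381 TPM. The others ranged widely in control embryos, with Oosp1 at 877 and 576 TPM, Bmp15 at 102 and 56.0 TPM, Gdf9 at 70.4 and 41.4 TPM, Zp3 at 1.56 and 2.35 TPM and Zar1 at 5.96 and 4.48 TPM, and Nlrp5 was at or near 0 throughout. Of the 7 tested, 5 were higher in both DMSO libraries than in both control libraries and 2, Bmp15 and Oosp1, were called higher. Zp3 was lower in both DMSO libraries, at 1.44 and 0.956 TPM, and was not called (limma adjusted p = 0.402). Of 6 genes activated at the 2-cell stage 5 were higher without overlap and 4 were called higher, and the list summed to 709 and 485 TPM against 2057 and 1499 TPM. Over all genes tested 31.1% were higher without overlap and 6.42% were called higher. Tcstv3 was the most abundant of the 2-cell genes, at 297 and 209 TPM against 716 and 574 TPM, and 51.0% of its 31-base words occur in other genes. The part of these markers in the differences of the volume control genes was not tested.

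The 10 markers of cumulus and granulosa cells summed to 3.51 and 2.51 TPM in control embryos and to 4.80 and 3.64 TPM after DMSO. Amh and Inhba were listed at 0 in all 4 libraries. Cyp11a1, which had the highest mean over the 4 libraries, was at 0.781 and 0.802 TPM against 2.10 and 0.958 TPM and was not called (limma adjusted p = 0.39). Tnfaip6 was at 1.52 and 0.225 TPM against 0.958 and 0.970 TPM, and Cyp19a1 was at 0.422 and 0.494 TPM against 1.25 and 1.08 TPM, without overlap. Star went the other way, at 0.733 and 0.779 TPM against 0.286 and 0.556 TPM, also without overlap. Has2 was at 0.060 and 0.165 TPM against 0.126 and 0 TPM, and Foxl2, Fshr and Ptx3 were at or near 0 in every library. The levels of Cyp11a1, Tnfaip6, Cyp19a1 and Star are similar to those of Slc6a9 and Aqp3, and to those of Slc6a20b in control embryos. After DMSO Slc6a20b, at 2.76 and 2.91 TPM, was above each of the 10 markers. The part of such cells in the values of these low genes was not tested. The 5 markers of blood and oviduct summed to 22.1 and 21.1 TPM in control embryos and to 30.0 and 37.8 TPM after DMSO, most of it Ovgp1, the gene of an oviduct glycoprotein. Neither of the 2 tested genes of that list was called, where 20.5% of all genes tested were. Both, Hba-a1 and Ovgp1, were higher in both DMSO libraries without overlap, as were 31.1% of all genes tested.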

How the data were processed

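RNA of 2-cell embryos was measured in 4 libraries. The authors mapped the reads with kallisto to the Ensembl transcriptome of GRCm38, summed transcripts per gene with tximport and deposited TPM values. As TPM holds no whole reads, count models were not used.

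Groups and replicate numbers came from the sample labels, and treated_rep1 and treated_rep2 of the table were matched to the titles 2%DMSO_rep1 and 2%DMSO_rep2. Symbols were taken from GENCODE M21, which named 29589 of the 30049 identifiers. limma 3.58.1 (R 4.3.3) was applied to log2(TPM + 1) of every gene whose mean reached 1 TPM (lmFit, then eBayes with a mean-variance trend, Benjamini-Hochberg adjustment at 0.05, no replicate block). The steps were tested on simulated data. Shared sequence was counted in words of 31 bases in the GENCODE transcripts, which may differ from the authors' index. Python 3.11.15, pandas 2.3.3, numpy 2.4.6 and matplotlib 3.10.9 were used for the rest.

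The genes and lists were chosen with earlier results of these data known. Named are the 10 genes, every gene called in a wider list, the 2 most abundant of a list with fewer than 2 calls, and the 3 genes closest to the most abundant gene tested. Slc6a20a, Slc6a5, Slc6a12, Slc38a7, Akr1b3, Csad, Impa1, Impa2, Hspa4l, Slc14a2, Oxsr1, Lrrc8a, Stk39, the marker genes and the overlapping genes were named after their values were seen. Alternatives were a pseudocount of 0.1, no filter, a mean of at least 5 TPM, no trend, median-ratio scaling, quantile normalization, a replicate block and leaving out each library. The rescaling without mitochondrial genes and the sum of the Slc6a20 copies were added later. Some genes that this rule names are not reported here. The raw reads were not used here.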

Additional observations from a re-analysis of the deposited data

How the results depend on the processing

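Of the 10 genes 1 was called lower by limma, and 0 were called lower without a filter on low values or after quantile normalization. Leaving out 1 library at a time gave 0 to 1. In the wider list 6 were called lower and 4 higher. Without a filter 0 were called in either direction, and leaving out 1 library gave 0 to 7 lower and 0 to 2 higher. The log2 fold change of Slc5a3, which was not called, was -0.10, ranged from -0.29 to 0.088 when 1 library was left out, and turned positive without control replicate 2 (0.088) and without DMSO replicate 1 (0.03). The cause of these changes was not tested. With a replicate block 12 of the wider list were called lower and 10 higher, the 10 called without it included, and 5132 genes in all. The labels give only a shared number, and across genes the departures from the group mean of libraries with 1 number correlated at 0.354, but with 2 pairs the numbers were not taken to pair the libraries. When 1 library was left out, the lone library was assumed to vary like those of the other group. TPM keeps no depth, so the precision of low genes such as Slc6a9 and Slc38a2 is unknown.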
